A study of Mus musculus with 18 samples.

Results

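The difference made by AOS was taken as an average over mice on a high fat diet with STZ and mice without them. AOS is a compound that the labels name only by these letters and a dose of 10 mg/kg. STZ, streptozotocin, raises blood glucose by killing beta cells of the pancreas, and HS stands for the high fat diet together with STZ. Of the 18 kidney samples in the series, 12 were used, chosen by their labels as 4 groups of 3: AOS (given AOS alone), control (labelled only as control), HS_AOS (HS with AOS) and HS (HS alone). The averaged AOS difference is the mean of AOS and HS_AOS minus the mean of control and HS, on the scale of log2(FPKM + 1), so 6 libraries given AOS stand against 6 not given it. All 12 came from ICR mice aged 10 weeks, and the 6 samples of groups with a transplant were not used. Whether the 3 samples of a group stem from different mice is not in the labels, so a p-value here measures the spread between samples and no more. FPKM is a level scaled to transcript length and to the size of the library. Differences on this log scale understate the change of genes at low levels.

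The kidney filters blood and then recovers most of what it filtered. Cells of the proximal tubule take up sugar, amino acids, phosphate and proteins and secrete organic anions, the thick ascending limb dilutes the urine, and the collecting duct sets its final water and salt content. When tubule cells are stressed or damaged they are known to make keratins, metallothioneins, heat shock proteins and cell cycle inhibitors such as p21. A feature that differs between AOS and control and again, the same way, between HS_AOS and HS is what the averaged difference is built to find.

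Of 19545 genes in the deposited table, 12191 reached 1 FPKM in 3 or more of the 12 libraries and were tested with limma, on 8 residual degrees of freedom. After Benjamini-Hochberg adjustment over these genes, 5 passed at 0.05, all lower in the libraries given AOS (0.041% of the genes tested), and 0 were higher. All 5 were transcripts of male germ cells present in the control libraries, and not differences shared by both pairs of groups. Without adjustment, 468 genes were higher at p under 0.05 (3.84%) and 1082 were lower (8.88%), so 30.2% of these were higher. After quantile normalization the same split was 1019 higher and 702 lower. The median averaged difference over all genes tested was -0.04, and quantile normalization put it at 0.02, a shift of 0.06. Below 0 lay 61.8% of all genes tested and above 0 38.2%, and without control 3 the share below 0 was 50.2%. Counts of list members are to be read against these shares. No gene both passed limma and had its 3 values apart in each pair.

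Some libraries stood apart. Control 3 correlated with the other 11 libraries at 0.949 to 0.967 across genes, where the others correlated with each other at 0.967 to 0.994. Kap, an androgen-driven transcript of the proximal tubule, stood at 144521, 155154 and 153075 FPKM in the AOS libraries and 150876, 145522 and 15798 in the controls. It stood at 66019.6, 71447 and 127320 FPKM in HS_AOS and 85519.5, 96123 and 100914 in HS. Kap thus marked all 12 libraries as kidney and was lowest in control 3. Summed markers of the adrenal gland, which lies on the kidney, reached 999 FPKM in control 3 and 693 in HS 3, against at most 5.78 in the other 10 libraries. Both libraries are on the side without AOS. Values without control 3, and without both libraries where HS 3 also mattered, stand beside the results that moved by over 1.5 times.

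The 5 genes that passed are genes of male germ cells. Prm1 and Prm2 encode the protamines that pack sperm DNA, and Tnp1 and Tnp2 the transition proteins that precede them. Oaz3 encodes an antizyme of the testis that limits polyamine synthesis. Prm1 stood at 9.07, 9.44 and 14.5 FPKM in controls 1, 2 and 3, and was listed at 0 in all 9 other libraries, those of AOS, HS_AOS and HS. Tnp2 stood at 7.15, 7.33 and 11.1 FPKM in the controls and Prm2 at 4.99, 5.7 and 6.86, both listed at 0 in the other 9. Tnp1 stood at 5.53, 3.6 and 4.63 FPKM in the controls and was likewise listed at 0 elsewhere. Oaz3 was listed at 0 in AOS and HS, at 0.2 FPKM in 1 HS_AOS library, and at 2.33, 2.8 and 3.55 in the controls. The adjusted p was 5.66e-05 for Prm1, Prm2 and Tnp2, 0.000279 for Tnp1 and 0.0058 for Oaz3. Their groups did not overlap between AOS and control, and between HS_AOS and HS they held next to no signal to compare. So the average is, for these genes, a difference between AOS and control only, and it is as much a difference between HS and control. They also passed the minimum of 1 FPKM in 3 libraries only through the controls, so they had to differ if they were tested at all. Of all genes, 0 passed without control 1 and 2 without control 2 (1787 and 1811 at an unadjusted p under 0.05), where members of this group missed that minimum.

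Of 18 germ cell genes listed, 9 were tested, and the other 9 did not reach 1 FPKM in 3 libraries. Ldhc, the lactate dehydrogenase of sperm, stood at 1.2, 1.47 and 2.01 FPKM in the controls, against at most 0.07 in any other library (adjusted p = 0.0704). The summed level of the list lay at 25.0 to 31.2 FPKM in AOS and 71.1 to 75.2 in control, and at 18.6 to 29.3 in HS_AOS and 35.2 to 45.9 in HS. Neither pair overlapped. In HS_AOS and HS the 5 genes that passed and Ldhc held next to no signal, so the sum there came from other members. The median difference of the 9 tested members was 0 in the HS pair. An exact two-sided permutation test within diet gave p = 0.005 for the summed list, and 0.075 after adjustment over 15 marker lists. The 0.005 is the smallest p that 400 arrangements can give. This list holds the 5 genes that passed, so its p is no separate support. In control 1 and control 2, which carried these transcripts, adrenal markers were not above the AOS libraries. Prm1, Prm2 and Tnp2 lie side by side on mouse chromosome 16 (GRCm38, Prm1 at 10796332 to 10796823, Prm2 at 10791377 to 10792105 and Tnp2 at 10787935 to 10788655).

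Promoter windows are shown for 4 of the genes named in these results, of which only Prm1 passed limma with all 12 libraries. They run from 250 bases before to 50 bases after the transcript start. The windows are from RefSeq (GRCm38.p6), each 5′ to 3′ on the strand of its gene. Prm1 is shown as the called gene with the highest level. Cry1, a clock gene, had the smallest p of all listed genes outside the germ cell list. Mt1 and Mt2 are neighbours whose values lay apart in both pairs. Capitals mark, in Prm1 (chr16:10796774-10797073, minus strand), the cAMP response element sought as TGACGTCA or TGACTTCA, and in Cry1 (chr10:85185005-85185304, minus strand) the E-box CACGTG. In Mt1 (chr8:94178839-94179138, plus strand) and Mt2 (chr8:94172368-94172667, plus strand) they mark the core of the metal response element, sought as TGCACNC or TGCGCNC. Both strands were searched.
Prm1: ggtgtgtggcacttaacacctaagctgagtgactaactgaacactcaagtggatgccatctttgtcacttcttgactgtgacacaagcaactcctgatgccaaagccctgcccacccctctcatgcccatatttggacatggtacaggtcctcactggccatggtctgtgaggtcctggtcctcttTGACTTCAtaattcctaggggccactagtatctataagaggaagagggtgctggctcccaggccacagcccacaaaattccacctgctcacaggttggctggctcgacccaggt
Cry1: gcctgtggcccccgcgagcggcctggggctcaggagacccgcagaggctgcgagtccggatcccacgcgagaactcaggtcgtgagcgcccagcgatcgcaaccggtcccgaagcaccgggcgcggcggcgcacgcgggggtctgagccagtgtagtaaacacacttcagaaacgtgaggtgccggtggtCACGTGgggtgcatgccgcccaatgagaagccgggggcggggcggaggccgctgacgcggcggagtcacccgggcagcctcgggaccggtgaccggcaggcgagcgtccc
Mt1: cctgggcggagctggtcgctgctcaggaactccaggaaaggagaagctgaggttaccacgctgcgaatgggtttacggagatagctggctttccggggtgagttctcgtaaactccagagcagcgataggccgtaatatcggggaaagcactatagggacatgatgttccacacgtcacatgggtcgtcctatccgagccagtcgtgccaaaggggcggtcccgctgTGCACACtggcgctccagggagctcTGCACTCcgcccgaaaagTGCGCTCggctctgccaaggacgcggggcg
Mt2: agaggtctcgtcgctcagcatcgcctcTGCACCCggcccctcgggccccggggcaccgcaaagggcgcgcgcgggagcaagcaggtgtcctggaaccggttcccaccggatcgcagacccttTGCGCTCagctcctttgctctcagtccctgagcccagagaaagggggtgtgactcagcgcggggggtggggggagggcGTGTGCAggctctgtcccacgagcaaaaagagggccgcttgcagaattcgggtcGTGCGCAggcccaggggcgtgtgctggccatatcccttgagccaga
The Prm1 window held 1 match, as did 3.3% of all 32851 windows in the table, which hold at least 1. CREM, a germ cell activator, is known to bind such elements. The Cry1 window held 1 E-box, the site of the clock activators, and 7.15% of all windows hold at least 1. Mt1 held 3 metal response cores, and 1.97% of all windows hold 3 or more. Mt2 held 4, and 0.517% of all windows hold 4 or more. A match is a description of letters and does not show that a factor was bound there.

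Apart from the test, genes were looked for whose 3 AOS values all lay on one side of the 3 control values and whose 3 HS_AOS values lay on the same side of the 3 HS values. There were 191 such genes, 55 higher with AOS (0.451% of the genes tested) and 136 lower (1.12%). Of these, 18 higher (0.148%) and 55 lower (0.451%) had all 6 values with AOS apart from all 6 values without it. Of the 12191 genes tested, taken alone and in either direction, 1601 were apart between AOS and control and 3033 between HS_AOS and HS. Whether 191 is more than unrelated pairs would give was not tested, so the count is not to be read as an excess. None of the 191 passed limma on the averaged difference, and the genes named from them below were chosen after their values were seen, so their values are a description. All 191 kept their direction after quantile normalization. They also kept it when control 3 was left out, but this was set by their choice. Values apart in both pairs cannot change direction when a library is dropped. Control 3 was nevertheless the highest of all 12 libraries for 66 of the 136 lower genes, and the lowest of all 12 for 24 of the 55 higher ones. All 190 of them with a GENCODE transcript also kept their direction once trends with GC content and length were removed library by library. How many genes pass depends on how libraries are weighted. With limma's array weights 1235 genes passed (10.1% of the genes tested), 546 higher and 689 lower, among them 154 of the 191. The weights ran from 0.11 for control 3 to 4.20 for HS_AOS 2, so HS_AOS then rested mostly on 1 library. With all 18 samples of the series in the fit, 27 genes passed (0.221%), 6 higher and 21 lower, 14 of them among the 191. The 191 were picked for separation in these same values. Neither their kept directions nor their numbers passing in these other fits are separate support for them.

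**Figure D1:**
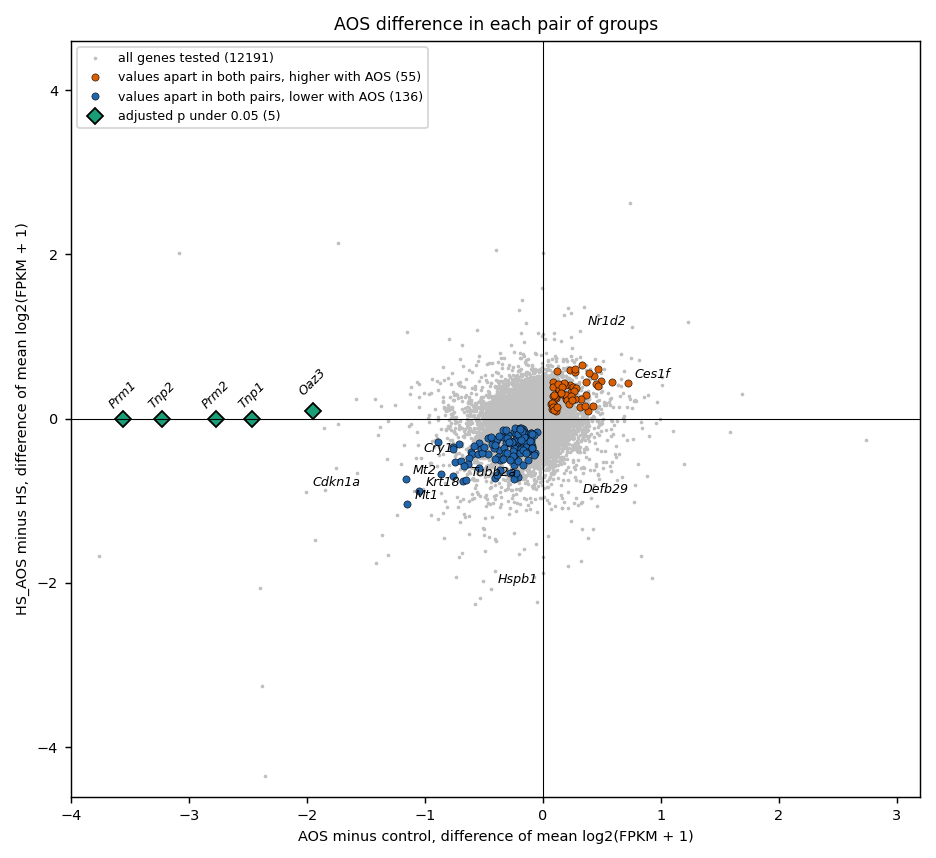
Each point is 1 of 12191 genes, by its difference of mean log2(FPKM + 1) between AOS and control (x axis) and between HS_AOS and HS (y axis). Orange and blue circles mark the 55 higher and 136 lower genes whose values lay apart in both pairs, and green diamonds the 5 genes that passed limma, which sit on the line of no difference between HS_AOS and HS.

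The plot of the 2 pairs against each other shows how little they had in common gene by gene. The pairs use different libraries. Across the 12191 genes, the difference between AOS and control and that between HS_AOS and HS correlated at 0.10 (Spearman) and 0.16 (Pearson), and 50.4% of genes had the same sign in both. Without control 3 the Spearman correlation was 0.07, and with the GC and length trend removed it was 0.16. These are descriptions across genes, which are not independent replicates and share their libraries. The GC content of transcripts moved with the averaged difference (Spearman -0.36 across genes). It did so in the HS pair (-0.47) and hardly in the other (0.02). The HS_AOS libraries were unlike each other in this. A library's deviation from each gene's mean correlated with GC content at 0.07, -0.29 and -0.61 in HS_AOS 1, 2 and 3. In HS 1, 2 and 3 it did so at 0.17, 0.29 and 0.25 (Spearman). The 55 higher genes had a median GC content of 46.1% and the 136 lower ones 54.2%, against 49.8% for all genes tested. Its part in single genes was not tested beyond removing the trend.

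Among the 55 genes higher in both pairs was Agxt2. Agxt2, a mitochondrial aminotransferase that breaks down dimethylarginines, stood at 51.3, 47.8 and 60.8 FPKM in AOS and 36.4, 41.1 and 36.7 in control. In HS_AOS it stood at 50.4, 60.04 and 62.3 FPKM and in HS at 45, 44.1 and 41.2. All 6 values with AOS lay above all 6 without it (log2 0.43 ± 0.08 (SE), adjusted p = 0.148).

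Tmem174, a membrane protein of the proximal tubule tied to phosphate transport, stood at 254, 248 and 221 FPKM in AOS and 182, 193 and 185 in control. It stood at 241, 250.5 and 256 FPKM in HS_AOS and 216, 178 and 158 in HS. Again the sides did not overlap (log2 0.41 ± 0.08 (SE), adjusted p = 0.149). Gcnt1 encodes an enzyme that branches mucin-type sugar chains. Its FPKM were 133, 120.2 and 136 in AOS and 107, 110.2 and 81.9 in control, and 119, 159 and 159.9 in HS_AOS and 96.2, 101 and 96.5 in HS (log2 0.47 ± 0.10 (SE), adjusted p = 0.175). The lowest of the 6 libraries with AOS, at 119 FPKM, was above the highest without it, at 110.2.

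Dnajc12 is a co-chaperone of the aromatic amino acid hydroxylases. It stood at 155, 180.03 and 154 FPKM in AOS and 121, 139 and 90.8 in control, and at 173, 143 and 141 in HS_AOS and 107, 128 and 97.7 in HS (log2 0.47 ± 0.11 (SE), adjusted p = 0.249). Its sides did not overlap either, with 141 FPKM as the lowest value with AOS and 139 as the highest without it. Nxt2, a nuclear export factor, ran over 36.6, 36.9 and 36.5 FPKM in AOS and 34.1, 35.8 and 31.3 in control, against 45.9, 52.3 and 57.9 in HS_AOS and 36.5, 33.6 and 32.9 in HS. The gap was narrow in the pair without HS (log2 0.12) and wider in the HS pair (0.58).

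Gjb2, which encodes the gap junction protein connexin 26, stood at 70.3, 74.2 and 64 FPKM in AOS and 41.7, 60.1 and 38.7 in control, and at 70.6, 89.7 and 77.6 in HS_AOS and 60.6, 64.5 and 49.3 in HS. The values were apart within each pair, though the lowest AOS value lay below the highest HS value. Ces1f, a carboxylesterase, had the largest averaged difference of the 55 (log2 0.58). Its values were 715, 763 and 762 FPKM in AOS and 685, 655 and 207 in control, and the low value of control 3 carried much of it, since the averaged difference without that library was 0.29. Others of this kind were Tcea3, a transcription elongation factor (log2 0.44), Ctbs, a lysosomal chitobiase (0.41), Sdc2, a heparan sulfate proteoglycan (0.32), B3galt5, a galactosyltransferase (0.44), and Nepn, a leucine-rich matrix protein (0.49).

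**Figure D2:**
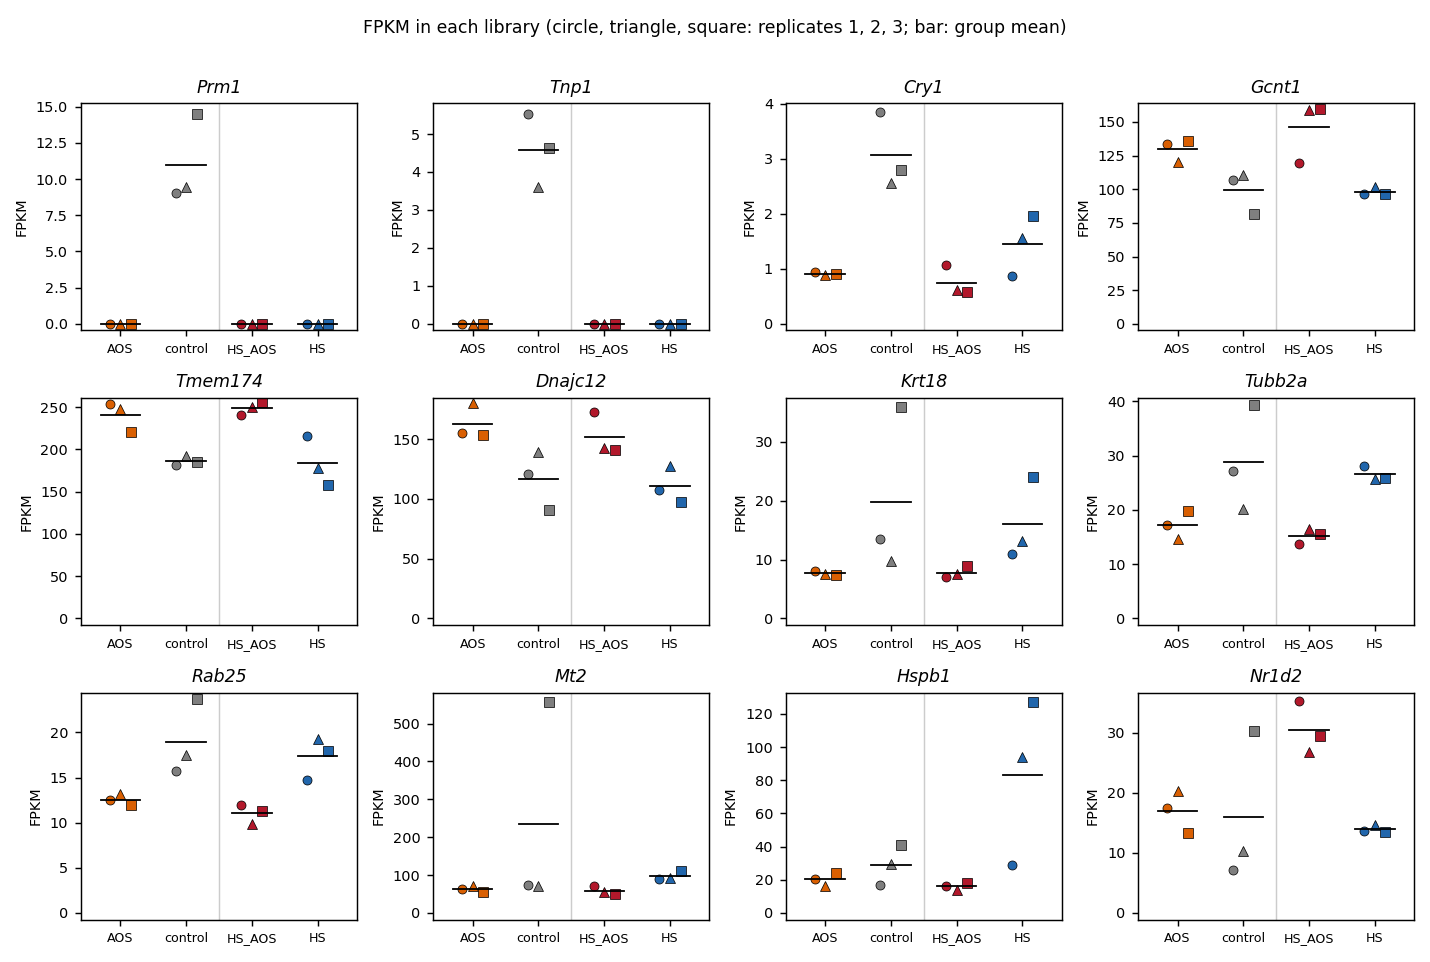
FPKM of 12 genes in each of the 12 libraries, by group; symbols are replicates 1 to 3 and bars are group means. The grey line parts the AOS and control pair from the HS_AOS and HS pair, and control 3 (the grey square) is the highest library for Prm1, Krt18, Tubb2a, Rab25 and Mt2.

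Among the 136 genes lower in both pairs was Krt18. Krt18, a keratin of simple epithelia that tubule cells make after injury, stood at 8.09, 7.54 and 7.35 FPKM in AOS and 13.5, 9.75 and 36 in control. It stood at 6.99, 7.56 and 8.82 FPKM in HS_AOS and 10.9, 13.1 and 24.1 in HS. The 6 values with AOS lay within 6.99 to 8.82 FPKM, and the other 6 spread from 9.75 upward (log2 -0.97 ± 0.27 (SE), adjusted p = 0.277). Without control 3 the averaged difference was -0.71, and without control 3 and HS 3 it was -0.55.

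Tubb2a and Tubb2b are neighbouring beta-tubulin genes on mouse chromosome 13 with closely related sequences, so reads may be shared between them. Tubb2a stood at 17.3, 14.6 and 19.7 FPKM in AOS and 27.1, 20.1 and 39.3 in control, and at 13.8, 16.5 and 15.5 in HS_AOS and 28, 25.6 and 25.9 in HS (log2 -0.72 ± 0.14 (SE), adjusted p = 0.149). The sides did not overlap, and the averaged difference was -0.60 without control 3. Tubb2b showed the same order at a lower level, with at most 4.46 FPKM with AOS and at least 4.57 without it (log2 -0.70).

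Rab25, a GTPase of epithelial recycling, ran from 9.84 to 13.2 FPKM over the libraries with AOS (median 12) and from 14.8 to 23.7 over those without (median 17.7). Its differences in the 2 pairs were alike, at -0.54 between AOS and control and -0.60 between HS_AOS and HS. Crb3, a polarity protein of the apical membrane, was likewise apart, at 27.7 to 40.4 FPKM with AOS and 41.6 to 55.5 without it. For Crb3 most of the difference came from the HS pair (log2 -0.67) and little from the other (-0.23).

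The gene nearest to passing that was present in all libraries was 1110008P14Rik, named in the table only by its clone. It stood at 134, 127 and 136 FPKM in AOS and 174, 152 and 188 in control. It stood at 112, 122 and 125 FPKM in HS_AOS and 168, 184 and 206 in HS. The sides did not overlap (log2 -0.50 ± 0.07 (SE), adjusted p = 0.053), and without control 3 the averaged difference was -0.46.

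Metallothioneins bind zinc and copper and are induced by metals and glucocorticoids. Mt1 stood at 238, 244 and 183 FPKM in AOS and 297, 264 and 1491 in control, and at 234, 153 and 120.2 in HS_AOS and 234, 437 and 369 in HS (log2 -1.09 ± 0.39 (SE), adjusted p = 0.317). Mt2 stood at 64.2, 70.7 and 56.4 FPKM in AOS and 73.7, 71.1 and 557 in control, and at 70.8, 55.4 and 50.3 in HS_AOS and 90.3, 93.1 and 111 in HS (log2 -0.95 ± 0.43 (SE), adjusted p = 0.391). Both were apart within each pair, Mt1 narrowly in the HS pair and Mt2 narrowly in the other. Control 3 was far above all other libraries for both, and without it the averaged differences were -0.69 for Mt1 and -0.46 for Mt2. Sgk1, a kinase induced by glucocorticoids that acts on sodium channels, was apart in both pairs too (log2 -0.59, and -0.29 without control 3). Its values were 14.8, 14 and 14 FPKM in AOS and 15, 20.8 and 63.4 in control, and 29.1, 27.4 and 27.3 in HS_AOS and 34.7, 34.3 and 34 in HS.

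Of the tubular injury list, 12 of 14 tested members were lower and 2 higher, 0 passed limma, and the median was -0.56, against -0.04 for all genes tested. Without control 3 the median was -0.30. Cdkn1a, which encodes p21, stood at 5.2, 3.73 and 4.62 FPKM in AOS and 14.9, 7.11 and 82.6 in control, and at 16.9, 26.1 and 12.2 in HS_AOS and 43.4, 23.9 and 35.8 in HS (log2 -1.45 ± 0.47 (SE), adjusted p = 0.292). Without control 3 its averaged difference was -0.97, and without HS 3 as well -0.95. The AOS and control values were apart, and the HS_AOS and HS values overlapped. Lcn2, the lipocalin released by injured tubules, stood at 3.57, 3.41 and 2.06 FPKM in AOS and 4.99, 2.72 and 35.1 in control, and at 3.93, 1.27 and 1.6 in HS_AOS and 6.43, 4.36 and 7.34 in HS (log2 -1.20, -0.71 without control 3 and -0.65 without both). Havcr1, the injury marker KIM-1, stood at 19.4 FPKM in control 3 and at 1.63 to 5.3 in the other 11 libraries. Its averaged difference of -0.58 was -0.12 without control 3.

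Of the p53 targets, all 18 tested were lower and 0 passed, with a median of -0.30, which was -0.05 without control 3. By pair, the median was -0.55 between AOS and control and 0.03 between HS_AOS and HS. Aen, an apoptosis nuclease, was the member with the smallest p. It stood at 11.8, 9.68 and 10.1 FPKM in AOS and 17.8, 13.4 and 25.4 in control, and at 15.2, 16.3 and 16.8 in HS_AOS and 26.3, 20.4 and 24.4 in HS (log2 -0.63 ± 0.13 (SE), adjusted p = 0.18). The groups of each pair did not overlap, and without control 3 the averaged difference was -0.52. Of 16 tested members of the ATF4 stress response, 15 were lower and 0 passed (median -0.38, -0.31 without control 3 and -0.23 without HS 3 as well). Atf4 itself, its transcription factor, stood at 61.9, 66.2 and 72.5 FPKM in AOS and 59.6, 86.3 and 81.7 in control, and at 61.9, 62.5 and 80.2 in HS_AOS and 83.1, 108 and 112 in HS, apart only in the HS pair.

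Heat shock chaperones, which keep proteins folded under stress, were lower for 20 of 23 members, with 0 passing and a median of -0.20. Here the median without control 3 was lower still, at -0.36. The median was -0.02 between AOS and control and -0.50 between HS_AOS and HS. Hspb1, a small chaperone that guards actin, stood at 20.6, 16.2 and 23.8 FPKM in AOS and 17.1, 29.6 and 41 in control, and at 16.4, 13.7 and 18.3 in HS_AOS and 28.8, 94.3 and 127 in HS (log2 -1.26 ± 0.33 (SE), adjusted p = 0.266). The values were apart in the HS pair and overlapped in the other. Cryab, alpha-B crystallin, behaved alike, at 40.1, 19.7 and 14.4 FPKM in HS_AOS and 47, 97.2 and 91.5 in HS (averaged log2 -1.20). Hspb8, active in chaperone-assisted autophagy, had an averaged difference of -0.88, which was -0.65 without control 3 and -0.46 without HS 3 as well. Hspa1b, an inducible Hsp70 gene with a near-identical copy, had one of -1.14. None of these passed.

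Immediate early genes, which are transcribed within minutes of a stimulus and also of tissue handling, were lower for 19 of 20 tested members, with 0 passing. Their median was -0.40 with all 12 libraries, -0.13 without control 3 and -0.25 without HS 3 as well. Jund stood at 47, 48.2 and 42.4 FPKM in AOS and 47.8, 43.4 and 57.3 in control, and at 41.4, 36.9 and 24.1 in HS_AOS and 49.96, 58.6 and 56.1 in HS. It was apart only in the HS pair. Of 27 antioxidant and NRF2 genes tested, 21 were lower and 0 passed (median -0.13, and -0.066 without control 3). Hmox1, heme oxygenase, stood at 27.6, 30.4 and 33.6 FPKM in AOS and 33.7, 38.7 and 39.3 in control, and at 28.8, 38 and 47.2 in HS_AOS and 56.1, 56.6 and 66.6 in HS (log2 -0.47 ± 0.11 (SE), adjusted p = 0.249). It was apart in both pairs, and its averaged difference without control 3 was close to that with it (-0.45).

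Clock genes lay on both sides of no difference. Cry1 encodes a repressor of the circadian clock. It stood at 0.95, 0.89 and 0.9 FPKM in AOS and 3.84, 2.55 and 2.79 in control, and at 1.06, 0.61 and 0.57 in HS_AOS and 0.86, 1.55 and 1.96 in HS (log2 -0.77 ± 0.13 (SE), adjusted p = 0.148). The AOS and control values were apart, and in the HS pair HS 1 lay within the HS_AOS range. Without HS 1, Cry1 passed limma (log2 -0.87, adjusted p = 0.0344). As HS 1 was the overlapping library, that fit is no separate support. In other limma fits Cry1 did not pass without control 3 (adjusted p = 0.108) and passed with all 18 samples (0.0424).

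Without control 3, 5 of 12058 genes passed limma (0.0415%), and 0 of them were among the 5 germ cell genes, which then missed the minimum of 3 libraries. All 5 had an adjusted p of 0.0354. Nr1d2, which encodes the clock repressor REV-ERB beta, was higher by 0.98 on the log2 scale. It stood at 17.4, 20.3 and 13.3 FPKM in AOS and 7.14, 10.4 and 30.4 in control, and at 35.3, 26.7 and 29.5 in HS_AOS and 13.6, 14.7 and 13.5 in HS. Control 3, at 30.4 FPKM, lay far above the other 2 controls and within the HS_AOS range. The other 3 higher genes were Slc35f3, a candidate thiamine transporter (0.68), Fnip2, a partner of folliculin in nutrient sensing (0.57), and Wipi1, an autophagy protein (0.45). Tmem120b, a membrane protein studied in fat cells, fell by 0.52. In each of these genes control 3 lay on the AOS side of the other controls, and with all 12 libraries none passed. When HS 3 was left out as well, 0 genes passed, with 1306 at an unadjusted p under 0.05.

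Of 15 core clock genes, 7 were higher and 8 lower and 0 passed with all 12 libraries. Arntl, which encodes the activator BMAL1, stood at 6.75, 4.59 and 8.24 FPKM in AOS and 12.5, 10.1 and 2.71 in control, and at 0.49, 4.33 and 3.03 in HS_AOS and 8.18, 8.46 and 8.93 in HS (averaged log2 -0.87, and -1.16 without control 3). Dbp, a transcription factor that BMAL1 drives, ran the other way, at 26, 36.5 and 11.5 FPKM in AOS and 2.76, 6.9 and 90.6 in control, and 166, 44.4 and 40.1 in HS_AOS and 11.2, 12.2 and 7.33 in HS (log2 1.68, and 2.36 without control 3). For both genes control 3 differed from the other 2 controls, low for Arntl and high for Dbp. Tef, a relative of Dbp, averaged 0.62, Per3, a period gene, 0.72 and Hlf, the last of the Dbp family, 0.38. Nfil3, which represses the same targets, stood at 4.73, 3.5 and 6.84 FPKM in AOS and 10.5, 9.07 and 3.04 in control, and at 1.73, 2.24 and 2.43 in HS_AOS and 5.29, 16.1 and 12.2 in HS (log2 -1.13). Clock transcripts follow the hour of day, and the labels give no hour at which a kidney was taken. Its part in these values was not tested.

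**Figure D3:**
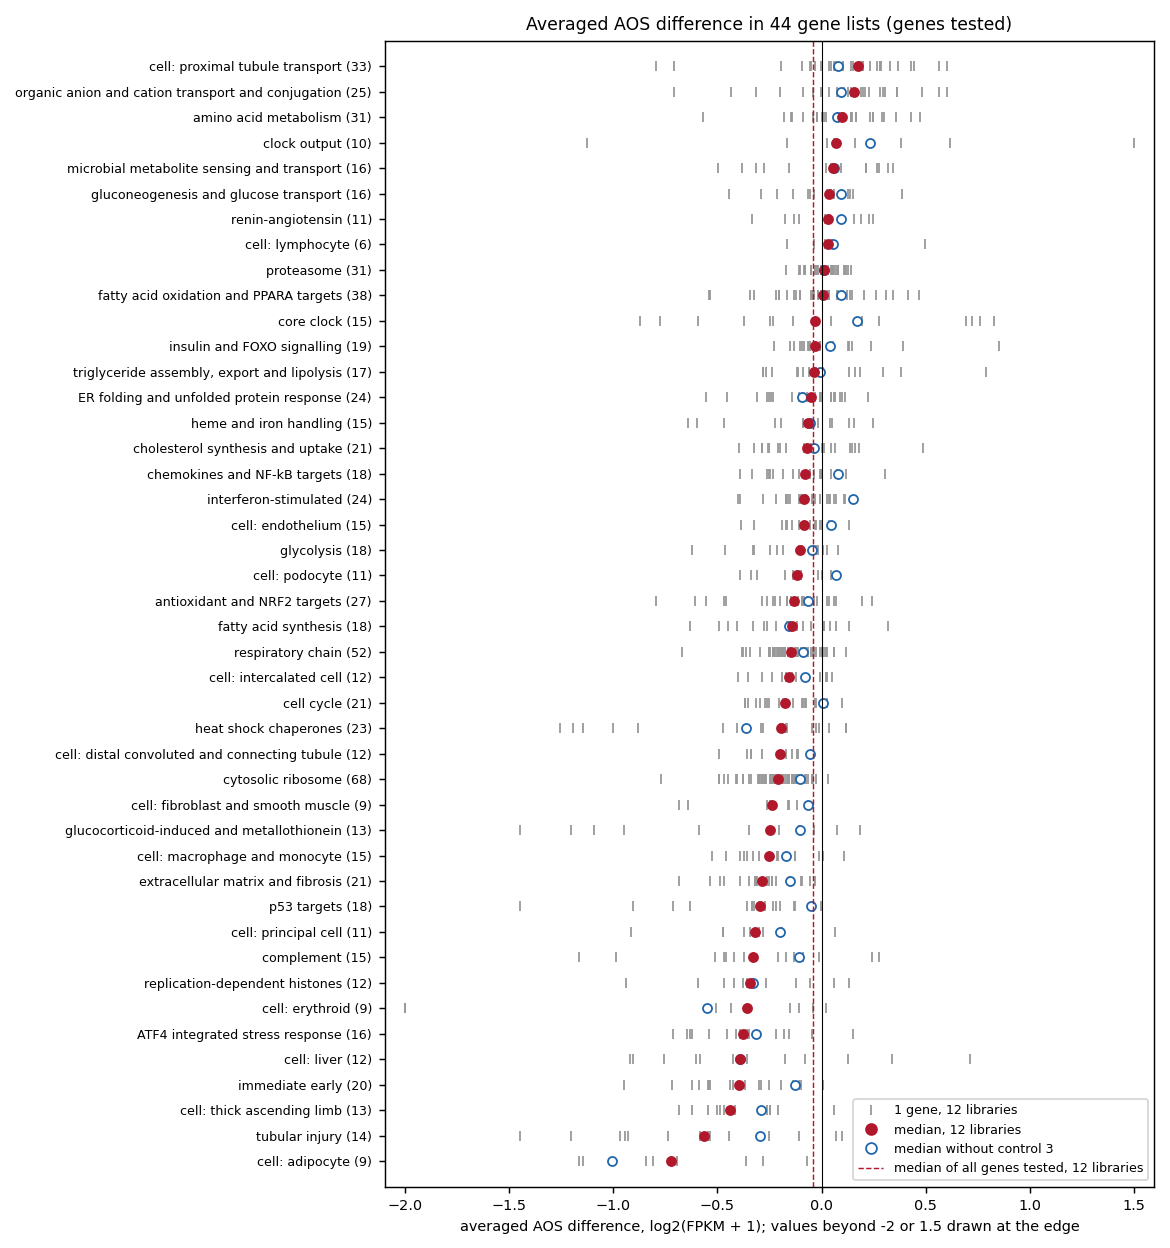
Averaged AOS difference of each tested gene (grey ticks) in 44 gene lists, with the list's median over 12 libraries (red) and without control 3 (open blue), in units of log2(FPKM + 1). Tubular injury had a median of -0.56, which was -0.30 without control 3, and proximal tubule transport 0.18, which was 0.08.

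Of 33 proximal tubule transport genes, 25 were higher and 8 lower and 0 passed, with a median of 0.18, and 0.08 without control 3. By pair, their median was 0.03 between AOS and control and 0.21 between HS_AOS and HS. All genes tested gave -0.09 and 0.01. Slc9a3, the sodium-proton exchanger of the brush border, stood at 32.8, 32.4 and 25.9 FPKM in AOS and 24.5, 27.8 and 32.2 in control, and at 38.9, 35.4 and 36.4 in HS_AOS and 25.7, 26.6 and 22.2 in HS (log2 0.33 ± 0.09 (SE), adjusted p = 0.266). It was apart only in the HS pair. Slc6a20b, a proline transporter, was apart in both, at 105, 102 and 106 FPKM in AOS and 92.3, 98.7 and 63 in control, and 119, 116 and 112 in HS_AOS and 105, 99.3 and 90 in HS. Its averaged difference was 0.28, and 0.18 without control 3, the lowest library. Of 25 genes of organic ion transport and conjugation, 18 were higher and 0 passed (median 0.15, and 0.092 without control 3). Slc22a8, the anion transporter OAT3, ran from 143 to 288 FPKM with AOS and from 82.4 to 189.9 without it, with wide overlap (log2 0.60, and 0.31 without control 3 and HS 3). Slc22a4, a carnitine and ergothioneine transporter, averaged 0.48.

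Of 31 genes of amino acid metabolism, 23 were higher and 0 passed (median 0.10, and 0.062 without control 3 and HS 3). Besides Agxt2, Aass, which opens lysine breakdown, stood at 152, 172 and 142 FPKM in AOS and 154, 137 and 101 in control, and at 192, 200.1 and 232 in HS_AOS and 159.9, 124 and 107 in HS (log2 0.47), apart in the HS pair only. Of 16 tested genes that sense or handle microbial metabolites, 11 were higher and 0 passed. The median was 0.06, 0.13 without control 3 and HS 3 and -0.02 with the GC and length trend removed. Fmo1 and Fmo2, monooxygenases that oxidise amines, averaged 0.32 and 0.34. Fmo1 stood at 388, 412 and 361 FPKM in AOS and 362, 345 and 291 in control, and at 528, 509.99 and 454 in HS_AOS and 426, 363 and 329 in HS. Its AOS and control ranges overlapped narrowly, and its HS_AOS and HS ranges were apart. Of 38 genes of fatty acid oxidation, 19 were higher and 19 lower (median 0.01, and 0.093 without control 3). Ppara, the receptor that drives that pathway, was apart in the HS pair alone, at 25.9, 20.5 and 18.1 FPKM in HS_AOS and 12.8, 9.96 and 12.8 in HS, while AOS and control gave 10.6, 11.5 and 10.4 and 8.9, 11 and 12.1. No test of the difference between the pairs passed for it.

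Of 13 thick ascending limb markers tested, 12 were lower and 0 passed, with a median of -0.44, which was -0.29 without control 3 and -0.27 without HS 3 as well. Further down the nephron, all 12 markers of the distal convoluted and connecting tubule were lower (median -0.20, and -0.055 without control 3). Principal cell markers were lower for 10 of 11 (median -0.32, and -0.20 without control 3). Intercalated cell markers had 9 lower and 3 higher (median -0.16, and -0.078 without control 3), with a median of 0.03 in the HS pair. None of these passed. Bsnd, the chloride channel subunit barttin, stood at 15, 15.3 and 13.1 FPKM in AOS and 17.6, 20.6 and 25.9 in control, and at 12.1, 11.7 and 12.3 in HS_AOS and 13.2, 20.2 and 16.4 in HS (log2 -0.47 ± 0.11 (SE), adjusted p = 0.249). Its values were apart in both pairs, as were those of Kcnj1, the potassium channel ROMK (log2 -0.42, and -0.29 without control 3). Umod, uromodulin, the main protein of normal urine, stood at 929.8, 687 and 583 FPKM in AOS and 693, 1032 and 898 in control, and at 395, 218 and 364 in HS_AOS and 441, 635 and 498 in HS (log2 -0.49), apart in the HS pair. In bulk tissue, fewer cells of a type and less RNA per cell cannot be told apart.

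The summed thick ascending limb markers lay at 1319 to 1850 FPKM in AOS and 1502 to 2086 in control, and at 840 to 1057 in HS_AOS and 1125 to 1535 in HS. The difference was -0.33 on the log2 scale, with an exact permutation p of 0.03 that became 0.12 over the 15 lists. Principal cells of the collecting duct gave 275 to 342 FPKM in AOS and 329 to 667 in control, and 231 to 349 in HS_AOS and 306 to 389 in HS (-0.40, adjusted p = 0.12 by the same exact test). Control 3 held the 667 FPKM, and without it the difference was -0.24. Proximal tubule transporters summed to 8517 to 8959 FPKM in AOS and 6246 to 8812 in control, and to 8498 to 9516 in HS_AOS and 7773 to 8459 in HS. The difference was 0.15, again with an adjusted p of 0.12 by the exact test, and the HS pair did not overlap. Without control 3 it was 0.078. Adipocyte markers ran from 88.5 to 593 FPKM over the libraries with AOS and from 114 to 1346 over those without. Erythroid markers spread from 3849 to 10567 FPKM with AOS and from 3295 to 18865 without. None of the 15 sums passed after adjustment.

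**Figure D4:**
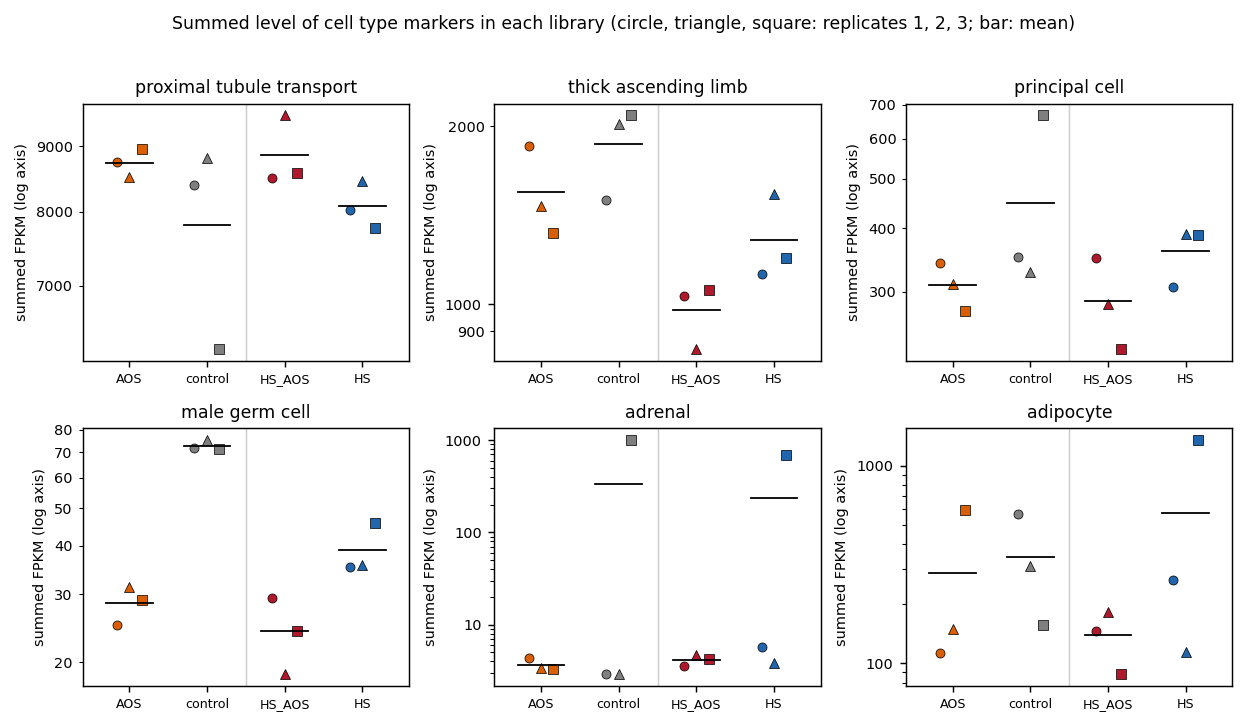
Summed FPKM of 6 marker lists in each library (log axis), with group means as bars. Germ cell markers lay at 71.1 to 75.2 FPKM in the 3 controls and at most 45.9 elsewhere, and adrenal markers reached 999 FPKM in control 3 and 693 in HS 3.

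Most listed genes of protein synthesis and respiration had an averaged difference slightly below 0, as did 61.8% of all genes tested. Of 68 cytosolic ribosomal protein genes, 67 were lower and 0 passed, with a median of -0.21. It was -0.10 without control 3, -0.12 with the GC and length trend removed and -0.13 after quantile normalization. Of 52 respiratory chain genes, 44 were lower and 0 passed. Their median was -0.15, and it was -0.09 without control 3 and -0.03 with the trend removed, where all genes tested gave -0.05. Between AOS and control it was -0.09, as for all genes tested, and between HS_AOS and HS -0.18, against 0.01 for all genes tested. Cox5a, a subunit of cytochrome oxidase, stood at 627, 593 and 629.9 FPKM in AOS and 689, 644 and 710.5 in control, and at 506, 539 and 508 in HS_AOS and 618, 680.4 and 704 in HS (log2 -0.25 ± 0.06 (SE), adjusted p = 0.249), apart in both pairs. Extracellular matrix genes were lower for all 21 tested, with 0 passing and a median of -0.29, which was -0.15 without control 3 and -0.11 without HS 3 as well. Col1a1, the chain of type I collagen, ran from 2.07 to 4.74 FPKM with AOS and from 3.67 to 6.9 without it, overlapping (log2 -0.49). Interferon-stimulated genes had 7 higher and 17 lower of 24 (median -0.09), 0.15 as the median without control 3 and 0.28 without HS 3 as well. Proteasome genes were near level, with 17 higher and 14 lower (median 0.01).

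Whether AOS differed in its effect with and without HS was tested as the difference between the HS_AOS minus HS and the AOS minus control differences. In all, 6 genes passed limma (0.0492% of the genes tested), the 5 germ cell genes and Defb29. The germ cell genes entered only through the controls, so for them this outcome was set once they were tested. Defb29, a beta-defensin, one of a family of antimicrobial peptides, stood at 232, 247 and 244 FPKM in AOS and 213, 209.7 and 175 in control, and at 108, 123 and 129 in HS_AOS and 253, 202 and 255 in HS. It was higher with AOS without HS (log2 0.28) and lower with AOS under HS (-0.97), with no overlap in either pair. The difference of the 2 was -1.25 ± 0.16 (SE, adjusted p = 0.0222). It did not pass with the GC and length trend removed (-1.05, adjusted p = 0.263), with a replicate block (adjusted p = 0.158) or in the limma fit to all 18 samples (adjusted p = 0.117). It passed in 2 of the 12 limma fits that left out 1 library (without HS_AOS 3 and without HS 2), over which the difference ran from -1.36 to -1.16 and the adjusted p from 0.0104 to 0.343. For Defb29 the averaged difference of -0.35 joins values of opposite sign, and it was -0.13 with the GC and length trend removed.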

How the data were processed

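Kidney RNA was sequenced by the submitters, who used Bowtie 0.12.2 and genome build mm10, per the submitters' processing notes. How reads were counted, on which annotation and with what strandedness is not given in the sources used here. Deposited was a table with 1 FPKM value per gene symbol and sample, which the authors had made and rounded. No unit is named, and FPKM was read from the values, which sum to nearly the same total across samples once multiplied by transcript length. It gives no counts, so the depth behind a value is unknown and no count test was run. Without stranded counting, overlapping genes cannot be told apart.

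Groups were taken from the labels. The scale was log2(FPKM + 1), and a gene was kept if it reached 1 FPKM in 3 or more of 12 libraries. Group means were fitted with limma 3.58.1 (R 4.3.3, trend and robust options), and contrasts gave the averaged AOS difference and its difference between HS and no HS. P-values were adjusted by the method of Benjamini and Hochberg, at 0.05, over all genes tested. Summed marker levels were compared by an exact two-sided permutation test over 400 arrangements within diet. The model was also run on simulated data with independent noise. Those data held no deviating library and no GC trend, so the run does not bear on these limits.

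Named genes were to be the 12 raised and 12 lowered that passed with values apart in both pairs and a mean of at least 2 FPKM, of which there were 0. Also named were up to 4 passing members of each of 46 gene lists or, where a list had none, up to 2 with the smallest p as values only. All others named were chosen after their values were seen. The comparison and the lists were chosen with earlier results of these data known. GC content and length are those of the longest GENCODE vM21 transcript. The trend was removed per library by natural splines with 4 degrees of freedom for each. Gene positions and promoter windows are from RefSeq (GRCm38.p6). The spreadsheet-altered symbols of a few genes were left as deposited.

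Other settings tried were a block for the replicate number, quantile normalization, a pseudocount of 0.1, no filter, a minimum of 5 FPKM, limma without its trend and robust options, array weights, all 18 samples in the fit, removal of the GC and length trend, and leaving out libraries. Array weights without control 3, with the trend removed, or shrunk by a prior of 1000 genes were added after the data had been seen.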

Additional observations from a re-analysis of the deposited data

Results flagged for a closer look

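The AOS difference differed between the HS pair and the other pair, by limma's test of that difference, for 6 genes. Prm1, Prm2 and Tnp2 each had an adjusted p of 5.66e-05, Tnp1 of 0.000279 and Oaz3 of 0.00239. All 5 were present in the 3 controls and listed at or near 0 in AOS, HS_AOS and HS, so only the pair without HS held a difference. They reached the minimum level only through those controls, so these p-values were set once the genes were tested and support nothing. Defb29 had an adjusted p of 0.0222, with a higher level in AOS than in control and a lower level in HS_AOS than in HS. Of 26 other settings, Defb29 passed in 11. It passed in 2 of the 12 that left out 1 library, without HS_AOS 3 and without HS 2. It did not pass with the replicate block (adjusted p = 0.158), with the GC and length trend removed (0.263), with both (0.755), with all 18 samples in limma's fit (0.117) or without control 3 and HS 3 (0.553). When control 1, control 2 or control 3 was left out, 0 genes passed (1925, 1581 and 1528 at an unadjusted p under 0.05).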

How the results depend on the processing

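The replicate number did not pair the libraries. Of 18 same-numbered pairs, 6 had deviations that correlated above 0.1 (range -0.33 to 0.22), and 6 of 12 libraries correlated best with their own number. With the replicate block, 5 genes passed for the averaged difference and 5 for the difference between pairs. The main counts were 5 and 6. With the block and the GC and length trend removed, 3 passed for the averaged difference. Without a filter 69 and 62 genes passed (61 of the 68 lower ones among the 69 had all 3 controls above the other 9 libraries), and at 5 FPKM or more 0 and 2 (1244 and 1183 at an unadjusted p under 0.05). With array weights the counts were 1235 and 1304, without control 3 they were 627 and 267, with the trend removed 450 and 12, and with shrunken weights 117 and 11. All 18 samples in the fit gave 27 for the averaged difference. Without control 3 and HS 3 both counts were 0 (1306 and 1077 unadjusted). Leaving out each library in turn gave 0 to 11 and 0 to 6; 11 came without HS 1, and 0 for the second came without any of the 3 controls. The germ cell genes missed the minimum of 1 FPKM in 3 libraries there and were not tested, and the cause of the other moves was not tested.

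Some of the 140 named genes were chosen for values apart in both pairs, and those cannot change sign when a library is left out. Of the 140, 136 never changed sign under any alternative. Those that did were Kap (main 0.47, -0.12 with array weights, -0.039 without control 3 and HS 3, -0.065 to 0.75 leaving out 1 library) and, without control 3 and HS 3, Akr1b7 (0.0106), Star (0.0761) and Ifi35 (0.0294). Of the marker sums, podocyte (0.0653), endothelium (0.0449) and adrenal (0.0685) turned without control 3 and HS 3. Leaving out 1 library gave -0.32 to 0.0857 for podocyte, -0.31 to 0.0309 for endothelium, -0.0729 to 0.26 for lymphocyte, -1.11 to -0.95 for germ cell and 0.0776 to 0.202 for proximal tubule. The last 2 reached an adjusted p of 0.0375 by the exact test without control 2. Without counts, low values have no known error, and with 3 libraries a group small differences cannot be resolved.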
